A study of Mus musculus with 5 samples.

Results

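Estrogen receptor α (ERα) peaks that were gained after estradiol beside a site already bound after vehicle are described here. They were chosen by their called positions in both libraries: an estradiol peak on an autosome was a member when it shared no base with a vehicle peak but had a vehicle peak at an edge to edge gap of at most 10000 bp. Gained peaks in runs of at least 5 estradiol peaks with successive gaps under 12.5 kb were left out, which removed 893 peaks that lay within that gap. Overlap was the first value used by the rule, and 78.7% of the autosomal estradiol peaks had no vehicle overlap. The rule left 1602 peaks of the 17055 autosomal estradiol peaks, or 9.39% (95% Wilson interval 8.96 to 9.84), and 17240 peaks are in the whole estradiol list. These peaks are called satellites below, and the vehicle peak nearest to each is called its anchor. Both names describe position only.

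The libraries came from the uterus of wild-type C57BL/6J mice whose ovaries had been removed 10 to 14 days before. The vehicle group received saline and the estradiol group received 250 ng of estradiol per mouse, both by intraperitoneal injection, and the uterus was taken after 1 hour. Each condition is 1 ERα chromatin immunoprecipitation (ChIP-seq) library, made with antibody sc-542 from whole uterus, so binding in epithelium, stroma and muscle is not separated. The labels used here state neither the age of the mice nor how many uteri went into each library. The autosomal lists held 5137 vehicle and 17055 estradiol peaks, with no read counts, so depth is unknown. The labelled tissue could not be checked against marker genes, because the lists hold positions and no expression values.

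ERα is a transcription factor that binds DNA as a dimer, classically at palindromic estrogen response elements, and it can also reach chromatin through other bound factors. Some receptor occupies chromatin without hormone, and estradiol increases its binding and changes the coregulators it recruits. Enhancers often hold several binding sites for the receptor and its partners within a short stretch of chromatin. No annotation or sequence on mm9, the build of the lists, was used here, so the genes beside the satellites are not named and no motif or sequence is given.

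The first question was where the satellites lay relative to their anchors. The median gap was 2.82 kb, with quartiles of 0.804 and 5.80 kb. Of the 1602 satellites, 458 (28.6%, 26.4 to 30.9) lay within 1000 bp of the anchor and 285 (17.8%, 16.0 to 19.7) within 500 bp. At the far end, 77 satellites had gaps over 9000 bp. Satellites lay almost equally on both sides, with 807 at higher and 795 at lower coordinates than the anchor. The last member inside the limit had a gap of 9974 bp and the first gained peak outside it, among those not in a run, had a gap of 10038 bp. Between 10 and 11 kb lay 69 such gained peaks, with a median length of 234 bp against 238 bp for the satellites with gaps over 9000 bp. The limit therefore does not fall at a step in number or length.

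The density of gained peaks differed between vehicle peaks that were still called after estradiol and those that were not. This density counts all 13428 autosomal gained peaks, including those in runs, per Mb of flanking sequence. A vehicle peak is called retained when it shared at least 1 bp with an estradiol peak, and vehicle-only otherwise. Vehicle-only peaks were shorter calls, with a median vehicle length of 166 bp (162 to 169) against 230 bp (228 to 234) for retained peaks. The densities were not compared at equal vehicle peak length. Around the 3663 retained vehicle peaks the density was 75.6 gained peaks per Mb in the first kb, 49.3 in the second, 32.9 between 4 and 5 kb and 22.5 between 9 and 10 kb. It was still 19.9 between 20 and 50 kb and 15.5 between 50 and 100 kb. Around the 1474 vehicle-only peaks it was 37.3 per Mb in the first kb and 15.3 in the second, and lay between 11.2 and 17.3 in each further kb up to 10 kb. Between 50 and 100 kb it was 12.5 there. Gained peaks were thus denser beside retained than beside vehicle-only sites in every 1 kb bin up to 10 kb. Beyond the first 2 kb the profile around vehicle-only sites was close to flat, whereas that around retained sites declined with distance.

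**Figure D1:**
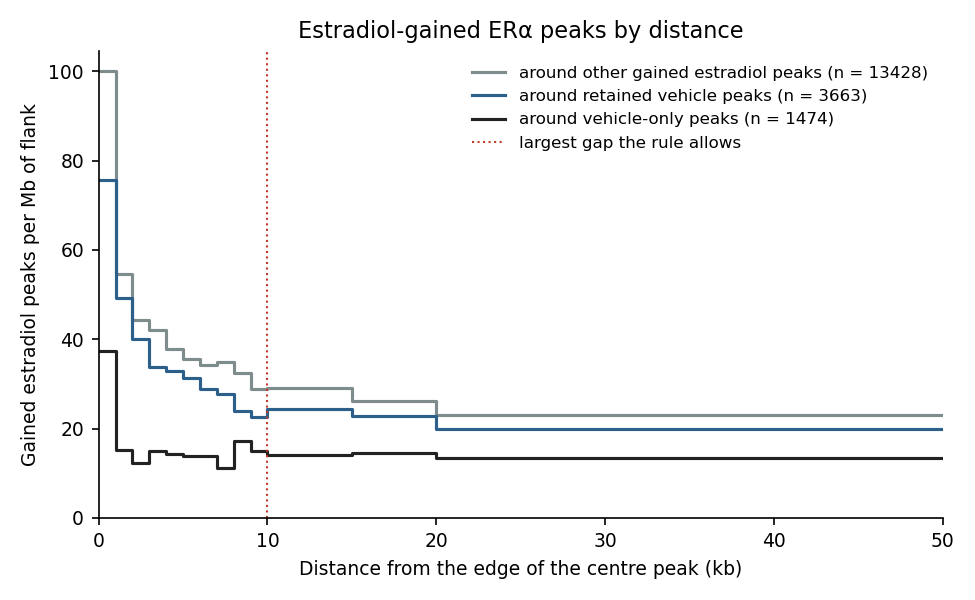
Density of estradiol-gained ERα peaks (per Mb of flanking sequence, vertical axis) by distance in kb from the edge of a centre peak, around retained vehicle peaks, vehicle-only peaks and other gained estradiol peaks. Retained vehicle peaks start at 75.6 per Mb and vehicle-only peaks at 37.3 per Mb, and the curve around gained peaks lies above both.

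Gained peaks were at least as dense around each other as around prebound sites. Around the 13428 gained peaks themselves, the density of other gained peaks was 100.2 per Mb in the first kb and 28.8 between 9 and 10 kb. Around the 3627 estradiol peaks that overlap a vehicle peak, called shared peaks, it was 81.3 and 21.4 in the same bins. Within 10 kb a gained peak had 0.890 gained neighbours on average and a shared peak had 0.728. The order was the same in each of 4 bins of peak length with about equal numbers of estradiol peaks: 0.678 against 0.342 in the shortest, 0.777 against 0.356 in the second, 0.859 against 0.435 in the third and 1.40 against 1.12 in the longest. A shared peak had more shared neighbours than a gained peak did, 0.265 against 0.197 within 10 kb. Counting estradiol peaks of either kind, the averages were 0.993 around shared and 1.09 around gained peaks. The name satellite therefore states that a prebound site is near, and these counts do not show a preference of gained peaks for prebound sites over other gained sites. Pairs share peaks, and these averages come from 1 library and carry no error between libraries.

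The satellites were distributed over 1207 anchors, which are 23.5% (22.4 to 24.7) of the autosomal vehicle peaks. Of these, 876 had 1 satellite, 267 had 2 and 64 had 3. Of the 331 anchors with more than 1 satellite, 143 had satellites on both sides. The mean was 1.33 satellites per anchor, and the exclusion of long runs limits how many a retained anchor can have. With their neighbours in the estradiol list, the satellites formed 1183 groups of at most 4 estradiol peaks. The most frequent group, with 478 cases, was a pair of 1 shared peak and 1 satellite. A shared peak with 2 satellites occurred 180 times and a shared peak with 3 satellites 58 times. A single shared peak was present in 822 groups, more than 1 in 128, and none in 233. In 176 groups the satellite was the only estradiol peak, so that the vehicle library had a peak at the anchor and the estradiol library had one only at the satellite.

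Most anchors remained called after estradiol. Of the 1207 anchors, 930 were retained (77.1%, 74.6 to 79.3), against 71.3% of all autosomal vehicle peaks. Among the 3423 vehicle peaks that were the nearest vehicle peak of neither a satellite nor a run peak within 10 kb, the share was 65.7% (64.1 to 67.3). The other 507 vehicle peaks without satellites were overlapped by a run peak or were the nearest to one within 10 kb. Their share was 95.5% (93.3 to 97.0), and those overlapped by a run peak are retained by definition. Setting these peaks apart lowers the share among the 3423. Over all 3930 vehicle peaks that were not anchors, the share was 69.5% (68.1 to 71.0). With runs of at least 3 estradiol peaks left out instead, the shares were 65.8% (62.2 to 69.2) of 696 anchors and 63.2% (61.5 to 64.8) of 3189 vehicle peaks with neither, a difference of 2.62 percentage points in place of 11.3, and these intervals overlap. The estradiol peak on a retained anchor counts toward the run, so a stricter limit removes satellites of retained anchors more readily. By gap, the share of satellites with a retained anchor showed no steady order. It was 81.1% (76.1 to 85.2) up to 500 bp and 76.3% (69.4 to 82.0) between 500 and 1000 bp. The share was 87.6% (82.5 to 91.4) between 1000 and 2000 bp and 85.3% (79.0 to 89.9) between 2000 and 3000 bp. It was 79.3% (74.0 to 83.7) between 3000 and 5000 bp and 79.1% (73.9 to 83.5) between 5000 and 7500 bp. The farthest bin, between 7500 and 10000 bp, had the lowest share, 68.0% (61.7 to 73.7).

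At retained anchors the estradiol peak was longer relative to the vehicle peak than at prebound sites without satellites. Vehicle peak lengths differed little. The median was 229 bp (95% interval of the median 222 to 236) at the 930 retained anchors. It was 228 bp (225 to 232) at the 2249 retained vehicle peaks that were the nearest of neither a satellite nor a run peak. These are called sites without satellites, though a satellite of a closer vehicle peak may lie near them. After estradiol the peaks had medians of 351 bp (339 to 361) at the anchors and 280 bp (274 to 284) at the sites without satellites. Dividing the estradiol by the vehicle length at each site gave a median ratio of 1.47 (1.43 to 1.52) at anchors and 1.20 (1.18 to 1.22) at the sites without satellites. At the 484 retained sites beside or in runs it was 1.66 (1.56 to 1.75). The excess at anchors was present in each of 4 bins of vehicle peak length. In the shortest bin the estradiol medians were 301 bp (281 to 319) at anchors and 242 bp (232 to 248) at sites without satellites, and in the longest bin 428 bp (410 to 467) and 354 bp (343 to 365).

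The ratio was larger where an anchor had more satellites. With 0, 1, 2 and 3 satellites the medians were 1.20, 1.39 (1.34 to 1.44), 1.63 (1.54 to 1.74) and 1.76 (1.62 to 2.16), the last over 55 anchors. The sites with 0 were the 2249 without satellites as defined above, so the 484 beside or in runs were left out. Over all 2733 retained vehicle peaks that were not anchors, the median ratio was 1.25 (1.23 to 1.27). The estradiol peak was longer than the vehicle peak at 68.8% (66.8 to 70.7) of the sites with no satellite, 81.7% (78.5 to 84.5) with 1, 90.5% (86.0 to 93.6) with 2 and 92.7% (82.7 to 97.1) with 3, against 75.0% of all retained autosomal vehicle peaks. The intervals for 2 and 3 satellites overlap. Anchors whose nearest satellite was far away had similar ratios, 1.43 (1.33 to 1.53) beyond 5000 bp and 1.51 (1.43 to 1.57) within 1000 bp. Estradiol peak length also differed with the number of neighbours away from prebound sites. Gained peaks outside runs and more than 10 kb from any vehicle peak had a median of 212 bp alone. Their medians were 232 bp in pairs, 248 bp in groups of 3 and 245 bp in groups of 4. Peak length is the extent of a call, not a measure of occupancy, and how far it follows either binding or local peak density was not tested.

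**Figure D2:**
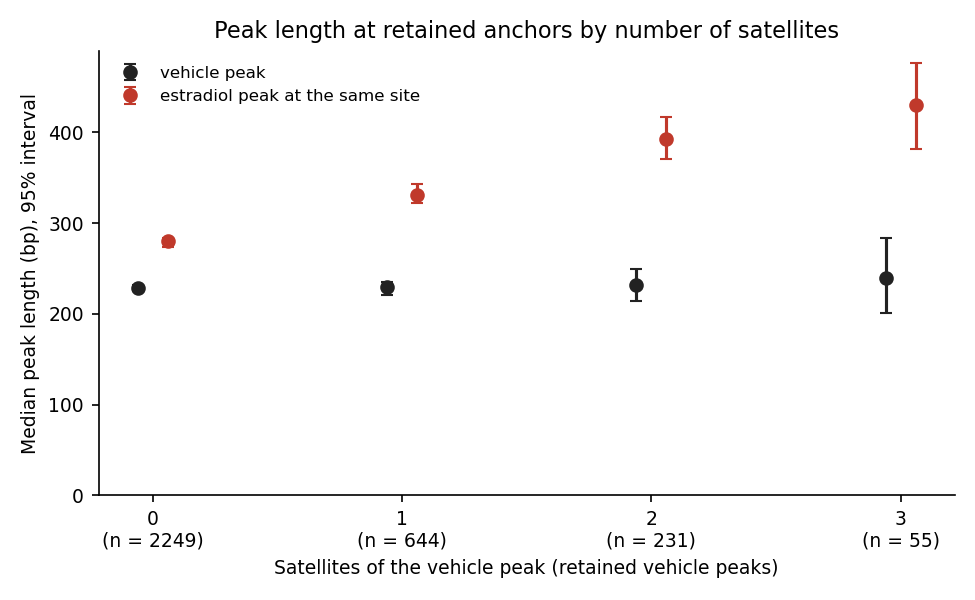
Median length in bp (vertical axis, with 95% interval of the median) of the vehicle peak and of the estradiol peak at the same site, for retained vehicle peaks with 0 to 3 satellites (horizontal axis, number of sites below). Sites beside or in runs are left out of the group with 0. Vehicle medians stay between 228 and 239 bp, while estradiol medians go from 280 bp with no satellite to 430 bp with 3.

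Satellites themselves were about as long as the other gained peaks outside runs and shorter than gained peaks in runs. Gained peaks outside runs of at least 5 and more than 10 kb from any vehicle peak are called distant gained peaks, although 41.9% of them had other estradiol peaks near enough to form a group of 2 to 4. Satellites had a median length of 227 bp (221 to 232), with quartiles of 170 and 291 bp. The median was 222 bp (220 to 224) for the 9787 distant gained peaks, 265 bp (258 to 272) for the 2039 gained peaks in runs and 306 bp (301 to 310) for shared peaks. The minimum of 100 bp was the length of 30 satellites. Compared at the same number of neighbouring estradiol peaks, satellites had medians below or close to those of distant gained peaks. The medians were 202.5 bp (187 to 216) and 212 bp (210 to 215) for peaks with no neighbour, 216.5 bp (210 to 227) and 232 bp (227 to 236) in pairs, 232 bp (224 to 243) and 248 bp (240 to 254) in groups of 3, and 246 bp (232 to 258) and 245 bp (234 to 255) in groups of 4. Median length showed no order with the gap: it was 220 bp (204 to 233) within 500 bp, 243 bp (221 to 258) between 2000 and 3000 bp and 229 bp (209 to 239) beyond 7500 bp. Satellites of retained anchors had a median of 232 bp (226 to 238) and those of vehicle-only anchors 203 bp (193 to 213). The vehicle peaks of these anchors differed in the same direction, with medians of 229 bp (222 to 236) and 167 bp (158 to 174).

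**Figure D3:**
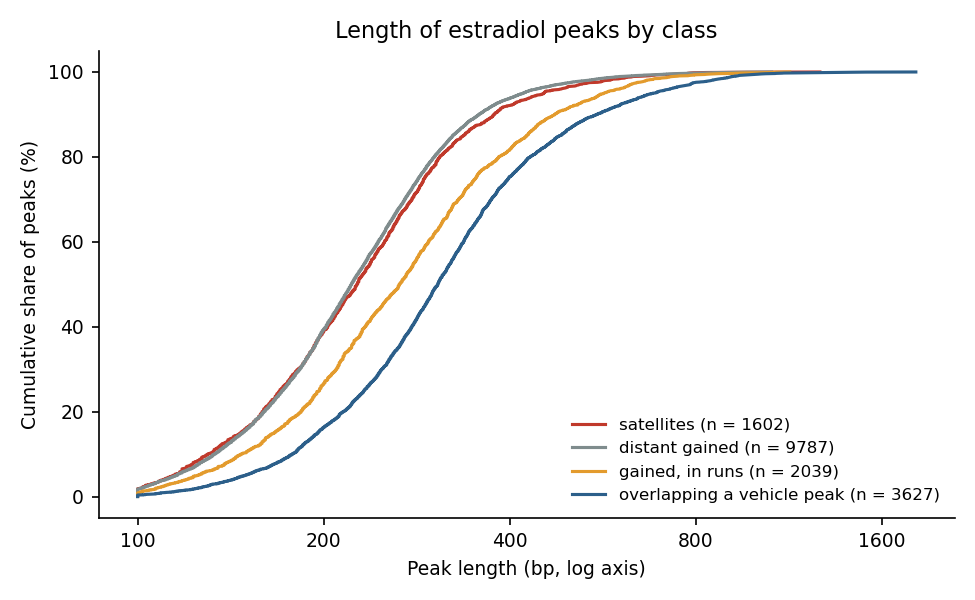
Cumulative share of peaks (%, vertical axis) by peak length (bp, log axis) for the 4 classes of autosomal estradiol peaks. The curve of the 1602 satellites runs close to that of the 9787 distant gained peaks and to the left of gained peaks in runs and of peaks that overlap a vehicle peak.

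Beside a retained anchor, the satellite was usually the smaller of the estradiol peaks. Of the 1271 satellites with a retained anchor, 1031 (81.1%, 78.9 to 83.2) were shorter than the estradiol peak on the anchor and 240 were longer, with a median ratio of 0.638 (0.613 to 0.661). Shared peaks are the longer class in any case: over all pairs of 1 satellite and 1 shared peak, wherever they lie, the satellite was the shorter in 70.0%, and over all pairs of a distant gained and a shared peak the distant one was shorter in 71.4%. Against the vehicle peak of the anchor, satellites were evenly divided, with 629 of 1271 (49.5%, 46.7 to 52.2) longer. The 331 satellites with a vehicle-only anchor lay farther out, at a median gap of 3.70 kb (3.12 to 4.36) against 2.65 kb (2.35 to 2.93) for those with a retained anchor. The share within 1000 bp was nearly equal, 28.7% (24.1 to 33.8) and 28.6% (26.1 to 31.1). Vehicle-only anchors were also the shorter vehicle peaks, as given above, and gaps were not compared at equal anchor length.

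The 10 longest satellites did not follow this order. The longest was a peak of 1271 bp at chr13:112180394-112181664 (mm9, as for all positions here), 6115 bp below a vehicle peak of 250 bp whose estradiol peak was 877 bp long. Next was 969 bp at chr10:93924909-93925877, 3190 bp above a vehicle peak of 190 bp that carried an estradiol peak of 469 bp. A satellite of 832 bp at chr13:52155503-52156334 lay 2337 bp above an anchor of 316 bp, with an estradiol peak of 754 bp. The satellite of 793 bp at chr2:26380726-26381518 had the shortest gap of the 10, 143 bp above an anchor of 280 bp whose estradiol peak was 406 bp. Each of these was longer than the estradiol peak on its anchor, as were all 7 of the 10 that had a retained anchor. This follows in part from their choice by length.

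The longest satellite beside a vehicle-only anchor was 782 bp at chr8:129050728-129051509, 2010 bp above a vehicle peak of 185 bp that had no estradiol peak. Another vehicle-only anchor of 180 bp lay 3256 bp above the satellite of 774 bp at chr3:59008930-59009703, which had no other estradiol peak in its group. The satellite of 733 bp at chr10:75095485-75096217 lay 2304 bp below a vehicle-only anchor of 201 bp. At these 3 sites the estradiol list had no peak on the anchor and a long one more than 2 kb away. The chromosome 8 anchor had 2 satellites, however, and the other one was shorter and lay within 1000 bp of the anchor. The remaining members of the 10 had retained anchors: 777 bp at chr13:51407371-51408147 (gap 1817 bp, estradiol peak on the anchor 370 bp), 758 bp at chr11:89962357-89963114 (gap 6912 bp, 371 bp) and 745 bp at chr2:31195334-31196078 (gap 9700 bp, 504 bp). Chromosome 13 held 3 of the 10, and chromosomes 10 and 2 held 2 each.

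The satellites closest to a vehicle peak were of more than one kind. The peak of 108 bp at chr5:124271032-124271139 touched its anchor, a vehicle peak of 576 bp, without sharing a base, and the estradiol peak of 501 bp on that anchor began 46 bp further on. A satellite of 231 bp at chr2:118355063-118355293 ended 15 bp before a vehicle peak of 390 bp, and only 3 bp separated it from the next estradiol peak. In contrast, the satellite of 615 bp at chr17:84382227-84382841 lay 15 bp from a vehicle-only anchor of 129 bp, with its nearest other estradiol peak 7033 bp away. The satellites of 225 bp at chr9:102545619-102545843 and of 232 bp at chr4:71860206-71860437 lay 18 and 21 bp from vehicle-only anchors of 142 and 134 bp, with no other estradiol peak in their groups. Of the 285 satellites within 500 bp of a vehicle peak, 237 (83.2%, 78.4 to 87.1) had another estradiol peak within 500 bp, and 54 had a vehicle-only anchor. An estradiol peak overlaps each retained anchor, and 81.1% of the 285 had a retained anchor. The share with another estradiol peak so near is therefore largely set by the choice. Whether such close calls are parts of 1 bound region was not tested.

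The 5 satellites with the largest gaps lay between 9939 and 9974 bp from their anchors. They were of 259 bp at chr16:38415230-38415488, 196 bp at chr7:142428975-142429170, 193 bp at chr19:46392733-46392925, 163 bp at chr6:38071161-38071323 and 261 bp at chr3:96013226-96013486. Their lengths of 163 to 261 bp lie around the median of all satellites. The anchors on chromosomes 16, 7 and 6 were retained, and those on chromosomes 19 and 3 were vehicle-only.

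The 5 anchors with the most satellites, taken as those with 3 satellites and the largest summed satellite length, showed different arrangements. On chromosome 10 the anchor of 190 bp at chr10:93921529-93921718 had satellites of 246 and 401 bp below it and of 969 bp above it, at gaps of 4736, 526 and 3190 bp. The anchor of 307 bp at chr9:65086077-65086383 had 1 satellite of 469 bp at 430 bp below and 2 of 497 and 510 bp at more than 9 kb above. Its own estradiol peak of 292 bp was shorter than each of them. At chr15:101814843-101815017 the vehicle-only anchor of 175 bp had 3 satellites of 360, 523 and 387 bp, all below it at gaps of 6678 to 9587 bp, and no estradiol peak on the anchor itself.

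Both remaining anchors were on chromosome 2. The anchor of 247 bp at chr2:31185387-31185633 had satellites of 217, 213 and 745 bp, all above it at gaps of 7619 to 9700 bp, and an estradiol peak of 504 bp. The anchor of 544 bp at chr2:72885196-72885739 carried an estradiol peak of 1290 bp, with satellites of 676, 180 and 291 bp below it at gaps of 4851 to 8339 bp. In this last case the estradiol peak on the anchor was longer than all 3 satellites, whereas on chromosome 9 it was shorter than all of them. The choice of these anchors by summed satellite length favours long satellites in such comparisons. At the chromosome 15 anchor and at both anchors on chromosome 2, each satellite lay nearer to another satellite than to the anchor.

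**Figure D4:**
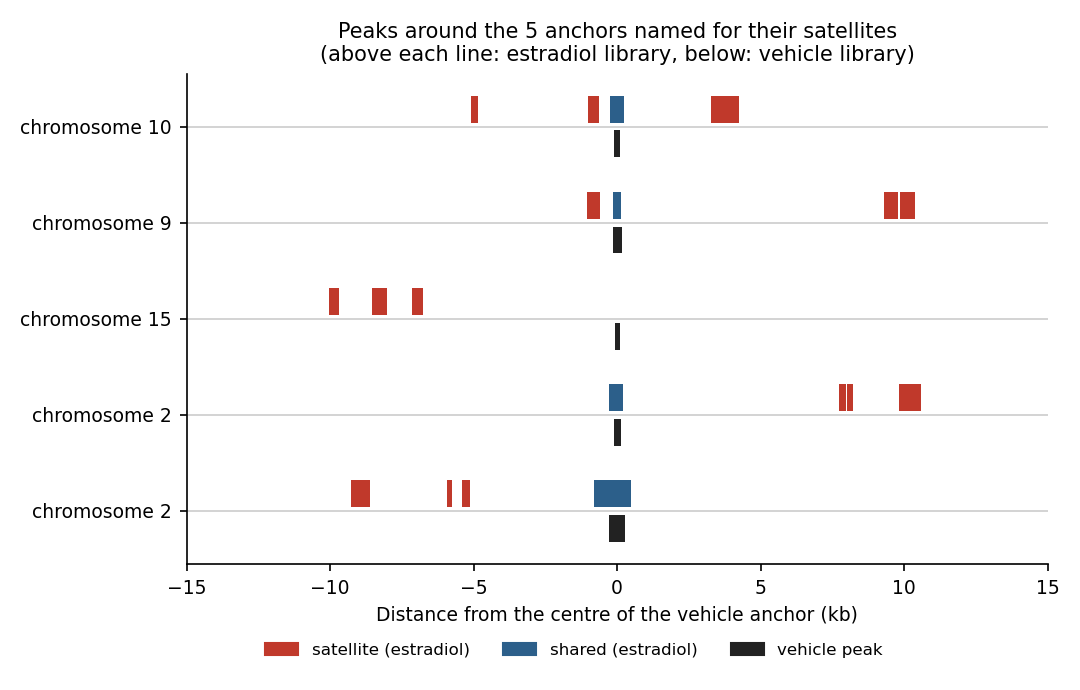
Called peaks within 15 kb of the centre of each of the 5 anchors (horizontal axis, distance in kb), with estradiol peaks above each line and vehicle peaks below it, drawn to scale. Each anchor has 3 satellites, and the chromosome 15 anchor has no estradiol peak on it.

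Satellites occurred on all 19 autosomes. On chromosome 1, 17.1% (13.5 to 21.4) of the vehicle peaks were anchors, the lowest share, and chromosome 11 had the highest, 31.1% (26.3 to 36.3), against 23.5% over all autosomes. Chromosomes 3 and 2 were also low, with 17.9% (13.8 to 22.8) and 18.7% (15.0 to 22.9), and chromosome 9 was high, with 29.4% (24.2 to 35.1). As a share of the estradiol peaks of the chromosome, satellites made up 6.56% (5.30 to 8.10) on chromosome 1 and 11.97% (9.92 to 14.4) on chromosome 13. These chromosomes were picked as extremes of 19, and the intervals treat neighbouring peaks as independent. In windows of 1 Mb, singled out after their values were seen, chromosome 11 between 59 and 60 Mb and chromosome 19 between 57 and 58 Mb held the most satellites, 10 each among 42 and 24 estradiol peaks. Windows with 9 satellites each lay on chromosome 10 from 5 Mb, chromosome 12 from 80 Mb and chromosome 7 from 80 Mb. In that order they held 37, 41 and 23 estradiol peaks and 21, 25 and 15 vehicle peaks. The windows with 10 satellites on chromosomes 11 and 19 held 9 and 7 vehicle peaks.

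**Figure D5:**
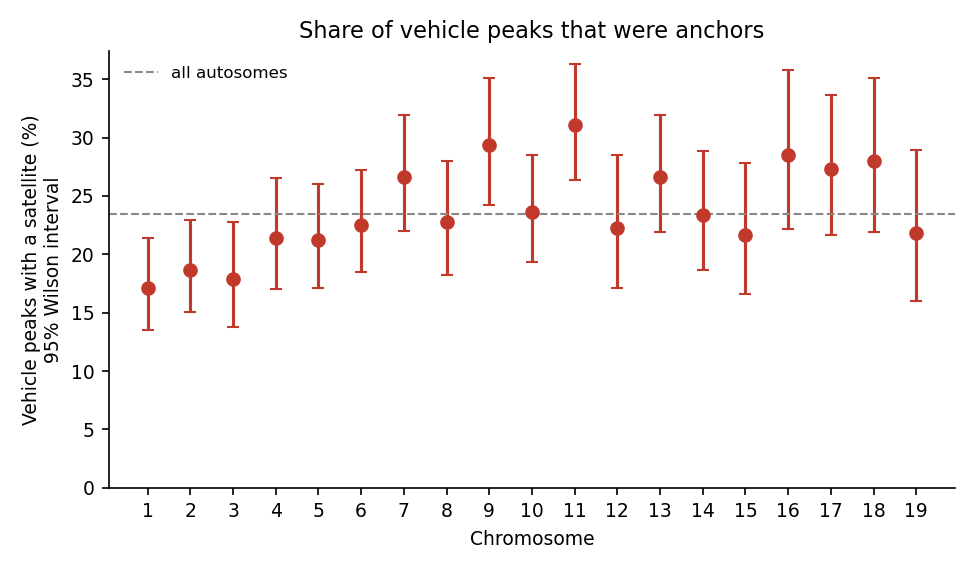
Share of vehicle peaks with at least 1 satellite (%, vertical axis, with 95% Wilson interval) for each autosome (horizontal axis), with the share over all autosomes as a dashed line. Chromosome 1 is lowest at 17.1% and chromosome 11 highest at 31.1%.

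With 1 library per condition, none of these values has a replicate check, and a gain after estradiol cannot be told apart from a difference in depth or yield between the libraries. Intervals are 95% intervals that cover counting error only.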

How the data were processed

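The authors deposited 1 list of called peaks per ERα library, with chromosome, start, end and a peak name, on mm9 per the file headers. Partek is named without a role per the submitters' processing notes. The sources used here do not name the aligner, peak caller or thresholds, or say whether input served as control. The deposited lists hold no score, p-value or read count, and the RNA polymerase II and input samples were not analysed here. Starts are printed counted from 1.

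Gaps, overlaps of at least 1 bp and runs were computed with pandas 2.3.3 and numpy 2.4.6 under Python 3.11.15. The gaps of all autosomal estradiol peaks were equal in bedtools 2.31.1. On simulated data all 1600 planted peaks received their class. Shares carry 95% Wilson intervals and medians the exact binomial interval of their order statistics (scipy 1.17.1). No test was run, since each condition has 1 library. The members and lists were chosen with earlier results of these data known. Regions were named by rule: the 10 longest satellites, the 5 with the smallest and the 5 with the largest gap, the 5 anchors with the most satellites, and the longest satellite beside a vehicle-only anchor. Planned results on genes, gene lists, gene positions and motifs were not run, because the reference tables are on GRCm38 and positions were not moved between builds. The alternatives tried were other gap limits, wider distance bins, other run limits, a wider definition of overlap, parts of each list and retained anchors only.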

Additional observations from a re-analysis of the deposited data

How the results depend on the processing

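The number of satellites follows the rule: it was 2425 with gaps of up to 20000 bp, 2495 with no removal of runs, 724 with runs of at least 3 removed, 629 in the longer part of each list and 611 in the lower part by peak number. These parts hold fewer peaks by construction, and satellites made up 7.35% and 7.16% of their estradiol peaks against 9.39% of the whole list. The median gap was 1421 bp with a limit of 5000 bp, 5917 bp with a limit of 20000 bp, 3751 bp with peaks within 500 bp counted as overlapping and 3122 bp in the lower part by peak number. The median length was 238 bp without removal of runs, 213.5 bp with runs of at least 3 removed, 218 bp with run gaps under 25000 bp, 310 bp in the longer part by construction, and 322 bp in the lower part by peak number. The retained share of anchors was 80.1% with the limit of 5000 bp, 81.0% without removal of runs, 65.8% with runs of at least 3 removed, 73.7% with run gaps under 25000 bp, 84.4% in the longer part and 88.2% in the lower part by peak number. It is 100% by construction where anchors had to be retained. Its excess was taken over vehicle peaks that were the nearest of neither a satellite nor a run peak. That leaves out vehicle peaks overlapped by a run peak, which are retained by definition. The excess was 2.62 percentage points with runs of at least 3 removed and 9.42 to 25.9 under the other alternatives with a free share. Gained peaks around all vehicle peaks were 3.18 times as many in the nearest as in the farthest bin up to 10 kb, and 2.45 times with bins of 2000 bp. The excess of the length ratio at retained anchors over the sites without satellites was 0.278. This excess stayed between 0.202 (runs of at least 3 removed) and 0.333 (no removal) over the 9 alternatives. Satellites per anchor ran from 1.04 to 1.58. The lower part by peak number, the length ratio and the excess of the retained share were chosen after seeing the data. The cause of the shifts was not tested unless stated. Alternatives on motifs, gene positions and gene lists were not run. No replicate could be left out, and the unknown depth limits all comparisons of the lists. No paired analysis was possible because each condition has 1 library.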

Other observations

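The number in each peak name, whose meaning is not stated, had a median of 10024 for satellites, 9428 for distant gained peaks, 7760 for gained peaks in runs and 5314 for shared peaks. Satellites within 500 bp of the anchor had a median number of 11013 and those between 2000 and 3000 bp one of 8438. Retained anchors had a median vehicle number of 1911, and the retained sites without satellites, those beside or in runs left out, had one of 1959.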
